A study of Mus musculus with 24 samples.

Results

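The corticosteroid receptors and a set of genes driven by them were followed in the nucleus accumbens (NAc) of male and female mice with and without Subchronic Variable Stress (SCVS). Chosen by symbol, with earlier results of these data known, the set held 9 genes out of 38293 in the count table. They were found there by their Ensembl identifiers. These were the receptor genes *Nr3c1* and *Nr3c2*, the hormone-activating enzyme gene *Hsd11b1*, and the target genes *Fkbp5*, *Tsc22d3*, *Sgk1*, *Per1*, *Zbtb16* and *Pdk4*. All 9 were among the 18593 genes with enough reads to be tested.

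Corticosterone, the main glucocorticoid of mice, crosses into brain cells and binds 2 receptors that act as transcription factors. The mineralocorticoid receptor has the higher affinity and is largely occupied at resting hormone levels, whereas the glucocorticoid receptor is filled by the daily peak and by stress. Bound receptors enter the nucleus and switch on genes such as *Fkbp5*, whose product in turn lowers the receptor's affinity for hormone, so that the mRNA of the target genes is widely used as a readout of recent glucocorticoid exposure.

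Messenger RNA was sequenced from 4 groups of C57BL/6J mice, labelled as 9 weeks old: unstressed males (NSM), stressed males (SM), unstressed females (NSF) and stressed females (SF). Stressed mice had gone through SCVS, in which foot shock, tail suspension and restraint alternated over consecutive days, and tissue was taken a day after the last stressor; no other agent or allele was given. By the methods of the study, all females had reached estrus or proestrus. Each group had 3 libraries, made by pooling 10 punches of 5 mice apiece. The spread between libraries is therefore a spread between pools, and differences between single mice could not be seen.

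The 12 libraries held 41076780 to 60867747 reads in genes. Markers of medium spiny neurons, the principal cells of the NAc, were high in every library, at 4368 to 5570 CPM (edgeR's counts scaled to library size) summed over 9 genes. Markers of cell types from outside the NAc also varied. The summed level of 7 genes of cortical glutamatergic neurons was 30.7 to 51.1 CPM in unstressed males, 71.8 to 222 in stressed males, 47.5 to 391 in unstressed females and 68.2 to 138 in stressed females, and 5 red blood cell genes summed to 21.8 to 27.4, 38.5 to 47.2, 29.8 to 38.9 and 28.8 to 31.9 CPM in the same order. One library of unstressed males, NSM1, stood apart in choroid plexus genes (109 CPM against 32.2 to 43.8 in the other libraries). In such bulk tissue, fewer cells of a type and less RNA per cell cannot be told apart.

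Relative to the length of their exons, the 9 genes covered a wide range of levels. *Per1*, which encodes a repressor of the circadian clock and is also a direct target of the glucocorticoid receptor, was highest, at 21.4 ± 2.30 RPKM (CPM divided by the exon length in kilobases; SD over the 12 libraries). *Sgk1*, a kinase gene that regulates ion channels and transporters, and *Nr3c1*, the gene of the glucocorticoid receptor itself, followed at 16.6 ± 2.56 and 16.5 ± 0.542 RPKM. *Nr3c2*, the gene of the mineralocorticoid receptor, and *Tsc22d3*, which encodes the anti-inflammatory protein GILZ, stood at 11.4 ± 1.03 and 11.3 ± 1.84 RPKM. Then came *Fkbp5*, the gene of a co-chaperone that holds the receptor in a state of low affinity, at 8.83 ± 0.742 RPKM, and *Pdk4*, a mitochondrial kinase gene that restrains the burning of glucose, at 3.80 ± 0.575 RPKM. *Zbtb16*, which encodes the zinc finger repressor PLZF, had 1.80 ± 0.550 RPKM and *Hsd11b1*, the gene of the enzyme that regenerates active corticosterone inside cells, 1.03 ± 0.129 RPKM. Neighbours in this order overlapped within 1 SD from *Per1* down to *Nr3c1* and from *Nr3c2* down to *Fkbp5*, and were apart by more than that elsewhere.

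**Figure D1:**
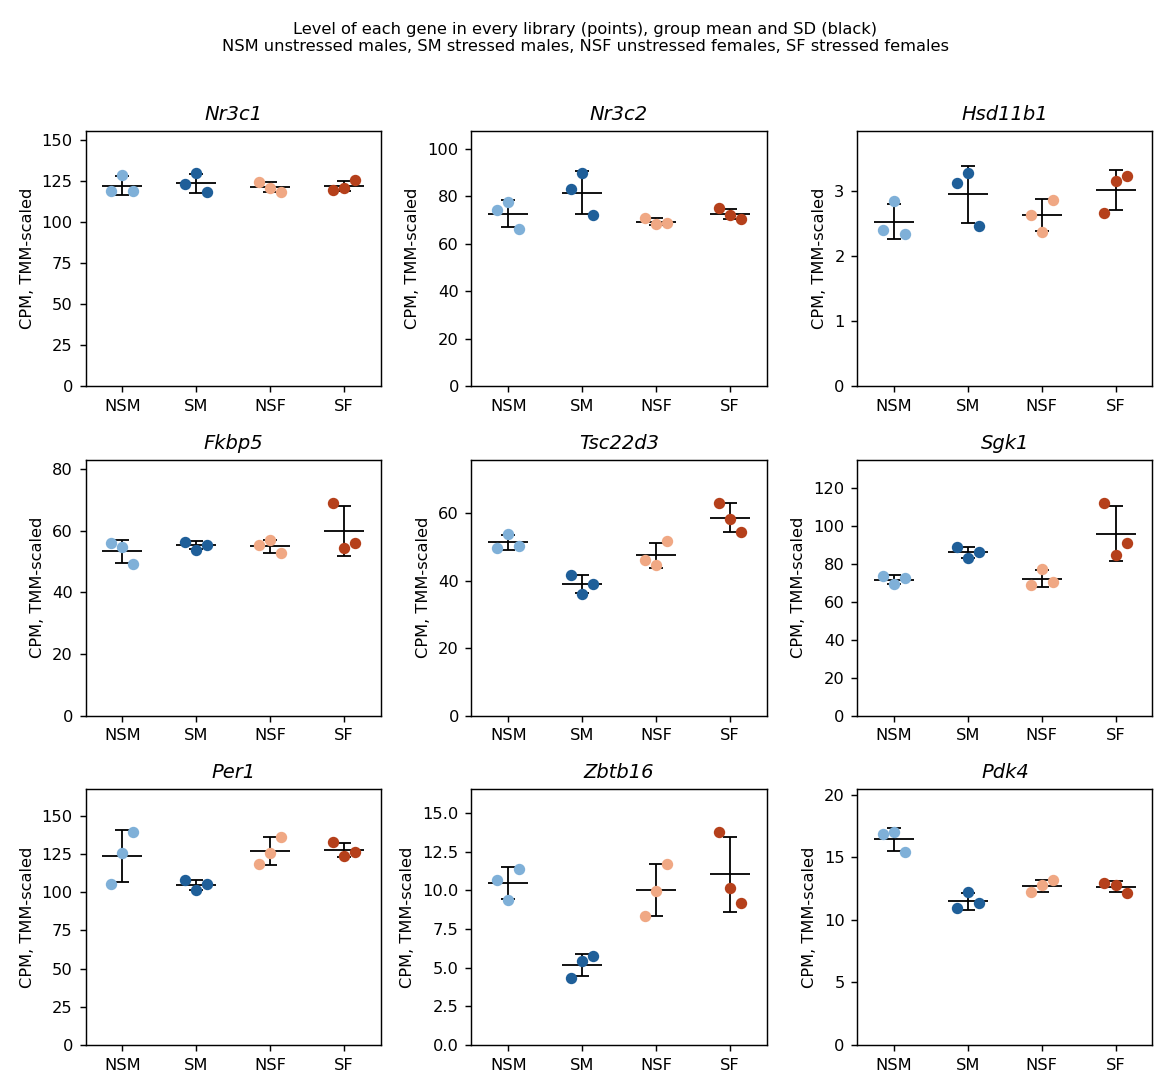
Level of each of the 9 genes in CPM (counts scaled to library size and TMM factor; linear axes from 0), with 1 point per library and the group mean and SD (3 libraries) in black. *Nr3c1* sits between 118 and 130 CPM in all 12 libraries, the stressed males (SM) lie below every other library for *Tsc22d3* and *Zbtb16*, and both stressed groups lie above both unstressed groups for *Sgk1*.

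The receptor transcripts were compared first. *Nr3c1* had 119, 129 and 119 CPM in the 3 libraries of unstressed males, 123, 130 and 118 in stressed males, 124, 121 and 118 in unstressed females, and 120, 121 and 125 in stressed females. The groups overlapped fully, and the highest of the 12 libraries exceeded the lowest by only 1.10-fold. The fitted log2 fold change after SCVS was 0.02 in males (95% confidence interval -0.09 to 0.12) and 0.01 in females (-0.10 to 0.12), intervals that span changes from -5.90% to 9.00% in males and from -6.45% to 8.36% in females. Scaling by library size alone turned both signs negative (-0.03 and -0.01).

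*Nr3c2* had 74.4, 77.5 and 66.2 CPM in unstressed males and 82.8, 89.6 and 71.9 CPM in stressed males, so that 1 stressed library fell among the unstressed ones. Its log2 fold change of 0.16 (standard error, SE, 0.07) had an unadjusted p of 0.0471 and an adjusted p of 0.226 (limma). In females it had 70.8, 68.2 and 68.8 CPM without stress and 75.0, 71.9 and 70.6 CPM with it, a log2 fold change of 0.07 (SE 0.07, adjusted p = 0.948, limma). A noncoding gene on the opposite strand, Gm10649, overlaps *Nr3c2* and held 67 to 100 reads per library, against 3141 to 4213 reads for *Nr3c2*.

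*Hsd11b1* rested on few reads, 111 to 161 per library. Unstressed males had 2.53 ± 0.273 CPM and stressed males 2.95 ± 0.433 CPM, and unstressed females had 2.63 ± 0.246 CPM and stressed females 3.02 ± 0.305 CPM (SD, n = 3 libraries). The log2 fold changes of 0.22 (95% confidence interval -0.08 to 0.52) and 0.21 (-0.08 to 0.50) did not pass the test in either sex, and with both sexes averaged the value of 0.21 had an unadjusted p of 0.0468 and an adjusted p of 0.26 (limma).

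In males, 3 of the 6 target genes were lower after SCVS. A gene was called at an unadjusted p under 0.05 with a fold change of at least 1.3, and adjusted p values were taken over all 18593 tested genes. *Tsc22d3*, *Zbtb16* and *Pdk4* were called lower in stressed males and no member was called higher, or 3 of the 9 members, where 6.44% of all tested genes were called in either direction and 4.08% were called lower. The same 3 also had an adjusted p under 0.05, as did 3.32% of all genes. When 1 library was left out, that threshold was still met by *Pdk4* in all 12 fits, by *Zbtb16* in 11 and by *Tsc22d3* in 9. At an unadjusted p under 0.05 without the fold threshold there were 6 members, where 21.5% of all genes reached it. For 4 members the 2 groups of libraries did not overlap, where this held for 23% of all genes. Both counts take in either direction: *Nr3c2* and *Sgk1*, among the 6, were higher in stressed males, and *Sgk1* is also among the 4.

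*Zbtb16* (chromosome 9, 48462416 to 48644050 in NCBIM37, minus strand) changed most. It had 10.7, 9.35 and 11.4 CPM in unstressed males, and 4.35, 5.40 and 5.76 CPM in stressed males. Every stressed library held less than any unstressed one, and the stressed male libraries were the lowest of all 12. The log2 fold change was -1.02 (SE 0.17, adjusted p = 0.0101, limma), so that the level fell by 50.5% (95% confidence interval -61.8% to -35.9%), on 173 to 651 reads per library.

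*Pdk4* (chromosome 6, 5433351 to 5446309, minus strand) had 16.9, 17.0 and 15.4 CPM in unstressed males and 10.9, 12.3 and 11.3 CPM in stressed males. The unstressed males were above all other libraries of the study. It fell by 29.8% after stress, a log2 fold change of -0.51 (SE 0.07, adjusted p = 0.00372, limma).

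*Tsc22d3* (X chromosome, 137074067 to 137135198, minus strand) fell from 49.8, 53.9 and 50.4 CPM in unstressed males to 41.6, 36.1 and 39.2 CPM in stressed males. Again the groups were apart, with the stressed males lowest of all 12 libraries. The log2 fold change was -0.40 (SE 0.07, adjusted p = 0.0134, limma). The level fell by 24.3%, near the fold threshold: without NSM2 it was -0.35 and without SM2 -0.34, which ended the call.

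The other 3 target genes did not pass in males. *Sgk1* went the other way, with 73.7, 69.4 and 72.4 CPM in unstressed males and 89.0, 83.3 and 86.2 CPM in stressed ones. These groups did not overlap, but the log2 fold change of 0.26 (SE 0.08) was under 1.3-fold and its adjusted p was 0.098 (limma). *Per1* had 105, 126 and 139 CPM in unstressed males and 108, 101 and 105 in stressed males, with a log2 fold change of -0.23 (SE 0.08, adjusted p = 0.141, limma) and NSM1 inside the stressed range. *Fkbp5* was at 53.3 ± 3.74 CPM without and 55.2 ± 1.31 CPM with stress (SD, n = 3 libraries), a log2 fold change of 0.05 with a 95% confidence interval from -0.12 to 0.22.

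Cell type markers moved with stress in males as well. Of the 7 cortical neuron genes 2 were called higher in stressed males (*Slc17a7* and *Emx1*), all 5 red blood cell genes were called higher, and 8 oligodendrocyte genes summed to 4886 to 5486 CPM without stress and 5894 to 5914 CPM with it, none called. The 6 microglia genes summed to 257 to 279 CPM without and 288 to 321 CPM with stress (*P2ry12* called higher), and the 6 genes of pericytes and smooth muscle to 148 to 151 and 154 to 172 CPM (*Tagln* called higher). The endothelial gene *Cldn5* and the fibroblast gene *Col1a2* were called lower, while the sums of their lists overlapped between the groups. Mitochondrial reads made up 8.78% to 10.1% of the reads in unstressed and 10.7% to 11.8% in stressed males, against 8.61% to 9.73% and 9.75% to 9.93% in females. When the mean log2 level of the cortical genes was added to the fit as a covariate, an alternative chosen after the data were seen, the log2 fold changes were -0.40 for *Tsc22d3*, -1.09 for *Zbtb16* and -0.48 for *Pdk4*, all still called, with adjusted p values of 0.114, 0.0772 and 0.0691 (limma). These were the highest of 9 alternatives, whose lowest adjusted p values were 2e-04, 2.3e-07 and 3.98e-07. Over all genes, the male fit with the covariate called 7.23%, and 1 gene had an adjusted p under 0.05, against 618 without the covariate. The part of red blood cells, of the other cell types and of the mitochondrial share in these changes was not tested.

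**Figure D2:**
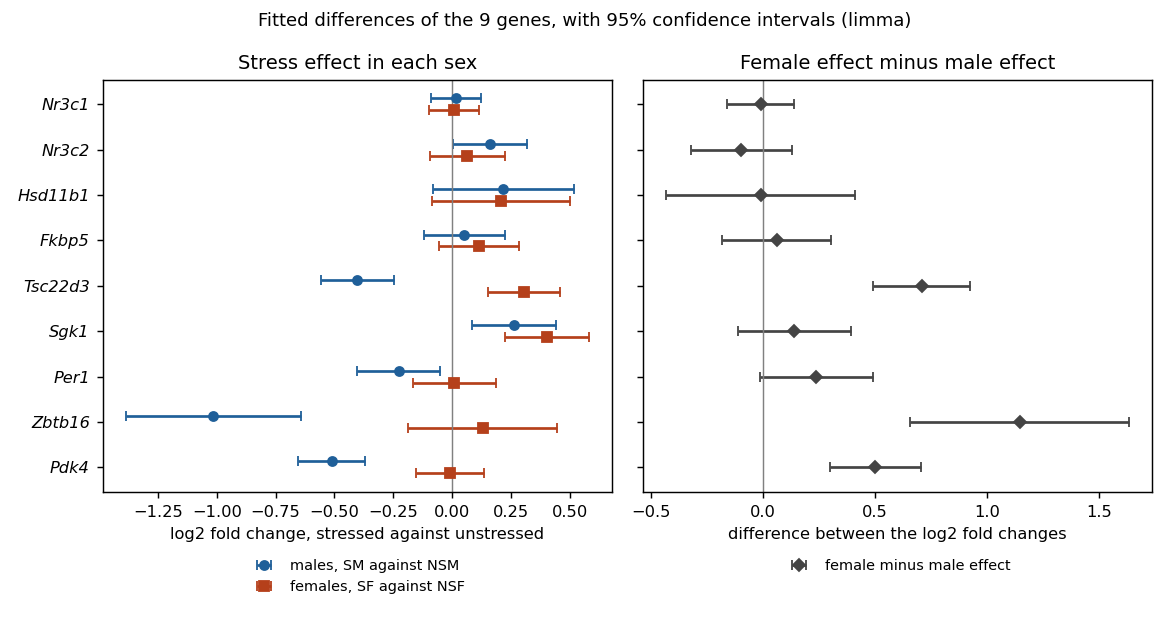
Fitted log2 fold change of stressed against unstressed mice for each gene in males (circles) and females (squares), and on the right the female minus the male value; bars are 95% confidence intervals from limma and the grey line marks no difference. *Tsc22d3* lies at -0.40 in males and 0.31 in females, the intervals of *Zbtb16* and *Pdk4* lie wholly below 0 in males and span 0 in females, and *Sgk1* is above 0 in both sexes.

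In females, *Sgk1* was the 1 member called after SCVS, and it was higher in stressed mice; 1.73% of all tested genes were called. At an unadjusted p under 0.05 there were 2 members, *Sgk1* and *Tsc22d3*, where 4.23% of all genes reached it, and the groups were apart for the same 2 members, where 11.3% of all genes had groups that did not overlap. In females 0 of the 18593 genes had an adjusted p under 0.05 by limma and 0 by edgeR, against 3 by DESeq2, although 786 had an unadjusted p under 0.05 by limma. These counts depended on the library NSF2, without which 61 genes had an adjusted p under 0.05 and 3.47% of all genes were called; without any other library the adjusted count stayed at 0 and 1.42% to 2.26% were called.

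*Sgk1* (chromosome 10, 21601990 to 21719709 in NCBIM37, plus strand) had 68.7, 77.2 and 70.7 CPM in unstressed females and 112, 84.8 and 91.0 CPM in stressed females. All 3 stressed libraries were above the unstressed ones, and SF1 was the highest of the 12 libraries. The log2 fold change was 0.40 (SE 0.08), a rise of 32.2% with a 95% confidence interval from 16.8% to 49.6% and an adjusted p of 0.948 by limma. Over 9 alternatives the adjusted p ran from 0.0324 (DESeq2) to 1. The call was lost without SF1 (0.28), without NSF1 (0.37) and with the cortical marker covariate (0.36).

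*Tsc22d3*, which had fallen in males, was higher in stressed females without being called. It had 46.1, 44.7 and 51.8 CPM in unstressed females and 63.2, 58.4 and 54.5 CPM in stressed females, without overlap. The log2 fold change of 0.31 (SE 0.07, unadjusted p = 0.000716, adjusted p = 0.948, limma) was a difference of 23.7%, under the fold threshold, and the log2 value was 0.25 without SF1.

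The remaining target genes differed little between stressed and unstressed females. *Zbtb16* had 8.36, 9.93 and 11.7 CPM without stress and 13.8, 10.2 and 9.18 CPM with it, a log2 fold change of 0.13 (95% confidence interval -0.19 to 0.45) that turned to -0.04 without SF1. *Pdk4* had 12.2, 12.8 and 13.2 CPM against 13.0, 12.8 and 12.2 CPM, with a log2 fold change of -0.01 and a 95% confidence interval from -0.15 to 0.14. *Per1* was at 127 ± 9.07 CPM in unstressed and 128 ± 4.58 CPM in stressed females (SD, n = 3 libraries). *Fkbp5* had 55.2, 56.8 and 52.6 CPM without stress and 69.1, 54.3 and 55.9 CPM with it, a log2 fold change of 0.12 (95% confidence interval -0.06 to 0.29) in which SF1 alone was high and without which the value was 0.01.

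**Figure D3:**
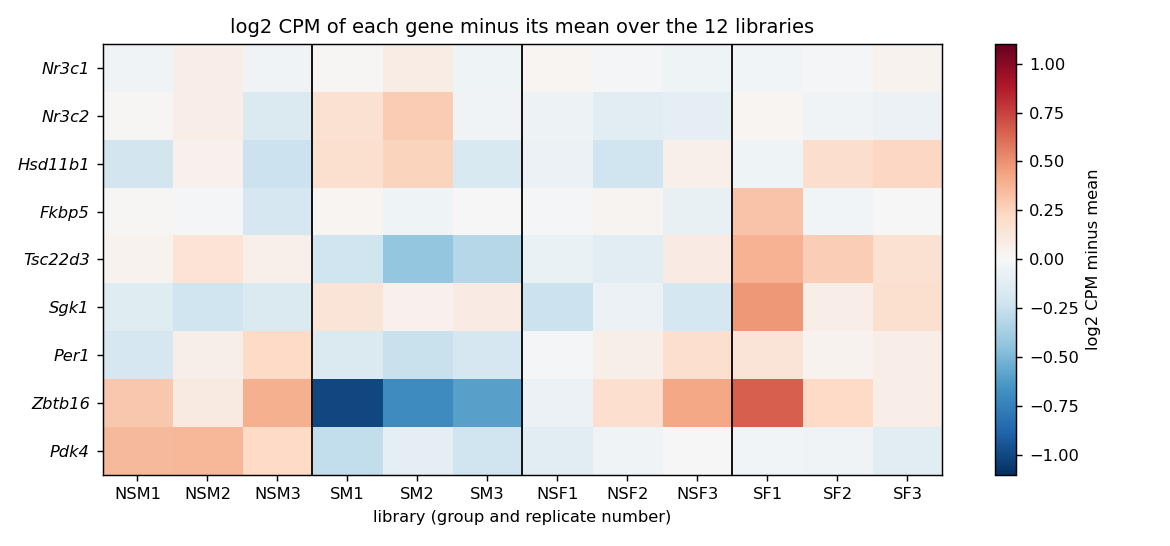
Each gene's log2 CPM in each of the 12 libraries minus its mean over the libraries (red above, blue below; black lines divide the groups). The 3 stressed male libraries are blue for *Tsc22d3*, *Zbtb16* and *Pdk4*, and SF1 is the reddest library for *Fkbp5*, *Tsc22d3*, *Sgk1* and *Zbtb16*. For *Pdk4* only the unstressed males lie clearly above the mean, and SM2 lies above NSF1 and SF3.

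*Sgk1* and *Tsc22d3*, whose stressed and unstressed libraries were apart in both sexes, are shown with part of their promoters, because the glucocorticoid receptor binds DNA as a dimer at paired copies of a short arm. RefSeq windows of 300 bases on GRCm38.p6 (250 before a transcription start and 50 after it) were at hand for 7 of the 9 genes, 15 windows in all, and not for *Nr3c1* or *Zbtb16*. They were searched on both strands for the single arm TGTTCT and for the full palindrome, which is AGAACA, any 3 bases and TGTTCT and so contains the arm. The palindrome was in 3 of all 32851 windows (0.00913%), and 1 of these belongs to *Sgk1*, at chr10:21993640-21993939 on the plus strand, where it begins 189 bases before the start. The arm was in 19.0% of all windows and in 4 of the 15 of these genes, 3 of *Sgk1* and 1 of *Tsc22d3*, at chrX:140600473-140600772 on the minus strand. Capitals mark the arms and, in *Sgk1*, the palindrome:
Sgk1 promoter window: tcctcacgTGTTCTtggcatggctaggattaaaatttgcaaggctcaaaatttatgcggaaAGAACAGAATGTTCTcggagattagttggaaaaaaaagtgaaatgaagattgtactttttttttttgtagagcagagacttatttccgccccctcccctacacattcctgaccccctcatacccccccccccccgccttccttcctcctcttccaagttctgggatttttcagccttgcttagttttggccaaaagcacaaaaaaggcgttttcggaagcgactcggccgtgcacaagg
Tsc22d3 promoter window: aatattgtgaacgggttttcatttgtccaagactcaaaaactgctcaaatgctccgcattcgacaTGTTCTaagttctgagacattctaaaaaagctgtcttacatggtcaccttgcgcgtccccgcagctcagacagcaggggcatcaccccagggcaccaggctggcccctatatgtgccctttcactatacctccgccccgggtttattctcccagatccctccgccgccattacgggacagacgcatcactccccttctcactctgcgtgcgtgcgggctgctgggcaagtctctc
A match shows only that these letters are present, and the windows lie on another genome build than the counts.

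Whether the change after SCVS differed between the sexes was tested by the sex-by-stress interaction, the female minus the male log2 fold change. It was called for *Tsc22d3*, *Zbtb16* and *Pdk4*, all higher in females, or 3 of 9 members, where 4.42% of all genes were called and 2.25% were called higher. For *Tsc22d3* the difference was 0.71 (SE 0.10, adjusted p = 0.0328, limma), 1 of 5 genes (0.0269%) with an adjusted p under 0.05. When 1 library was left out, its adjusted p ran from 0.00996 to 0.195 and was under 0.05 in only 3 of the 12 fits (without SM1, NSF2 or NSF3); over all genes such fits gave 0 to 218 genes under 0.05, the most without NSF2. For *Zbtb16* it was 1.15 (SE 0.23, adjusted p = 0.129) and for *Pdk4* 0.50 (SE 0.09, adjusted p = 0.12, limma), and all 3 were called, by unadjusted p and fold, in each of the 12 fits.

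The difference was not shown for the other members. *Per1* had an interaction of 0.24 (95% confidence interval -0.01 to 0.49) and *Sgk1* one of 0.14 (-0.11 to 0.39). For *Sgk1*, whose values were above the unstressed libraries in both sexes, the averaged log2 fold change was 0.33 (SE 0.06, adjusted p = 0.0327, limma), under the fold threshold unless SF2 was left out (0.38). *Fkbp5*, *Nr3c2*, *Nr3c1* and *Hsd11b1* had interactions between -0.10 and 0.06.

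Averaged over the sexes, *Zbtb16* was the 1 member called, at -0.44 (SE 0.11, adjusted p = 0.0851, limma), where 3.38% of all genes were called. *Sgk1* and *Pdk4* had an adjusted p under 0.05 (0.5% of all genes did), *Pdk4* at -0.26 (SE 0.05, adjusted p = 0.0327), but each kept it in only 5 of the 12 fits without a library. For *Zbtb16* and *Pdk4* this mean stands for a fall in males beside a female value near 0, and for *Tsc22d3* opposite values left -0.05 (SE 0.05).

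Before stress, the sexes differed in few of these genes. No member was called between unstressed females and males by limma, edgeR or DESeq2, where 5.31% of all genes were called by limma. *Pdk4* alone had an unadjusted p under 0.05: in females against males it differed by -22.5%, a log2 difference of -0.37 (SE 0.06, adjusted p = 0.0324, limma), without overlap between the sexes. Of all genes 0.285% had an adjusted p under 0.05, and for 19.5% the unstressed sexes did not overlap. The *Pdk4* value was near the fold threshold of 1.3 and passed it under scaling by library size (-0.39), with only the 6 libraries compared (-0.38), or without NSM3 (-0.42) or NSF3 (-0.39). The adjusted p was under 0.05 in 8 of the 12 fits without a library, and over 9 alternatives it ran from 0.000724 (DESeq2) to 0.957 (cortical covariate, with a log2 difference of -0.33). Over all genes, DESeq2 gave 484 with an adjusted p under 0.05 in this contrast, against 53 by limma. In the same contrast 5 of the 7 cortical neuron genes were called higher in females.

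After stress, *Tsc22d3* and *Zbtb16* were called higher in females than in males, 2 of 9 members, where 5.55% of all genes were called. *Tsc22d3* was 50.9% higher (log2 0.59, SE 0.07, adjusted p = 0.00309, limma) and *Zbtb16* 2.10-fold higher (log2 1.07, SE 0.17, adjusted p = 0.0322, and under 0.05 in 8 of the 12 fits without a library); 0.145% of all genes had an adjusted p under 0.05. *Per1* was higher in every stressed female library (124 to 133 CPM) than in any stressed male library (101 to 108 CPM), with a log2 difference of 0.28 (SE 0.08, adjusted p = 0.118, limma). The stressed sexes did not overlap for 20.4% of all genes. *Pdk4*, which had differed before stress, was now 9.81% higher in females with a 95% confidence interval from -1.03% to 21.8%. Both comparisons between the sexes share their libraries with the stress comparisons, so these values are not independent of the ones above.

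The receptor's partner proteins were read from lists of genes. Unliganded receptor is folded and held by the HSP90 machinery, of which 9 chaperone genes were tested. None was called in either sex by limma, with 3 at an unadjusted p under 0.05 in males and 0 in females, where 21.5% and 4.23% of all genes reached it, and the median log2 fold change in males was -0.10 beside -0.01 over all tested genes. Lowest in p were *Fkbp4*, the co-chaperone that competes with FKBP5 and favours hormone binding, at 102 ± 3.07 CPM in unstressed males against 84.4 ± 2.39 CPM in stressed ones (log2 -0.28, SE 0.04, adjusted p = 0.00737, limma), and *Stip1*, which links HSP70 to HSP90 (log2 -0.24, SE 0.06, adjusted p = 0.0341). In females *Fkbp4* had 92.3 ± 3.26 and 93.3 ± 1.91 CPM (SD, n = 3 libraries). *Stip1* had 183 ± 11.0 CPM in unstressed and 154 ± 9.28 in stressed males, and 156 ± 4.83 and 160 ± 2.86 in females. Between unstressed females and males 6 of the 9 had an unadjusted p under 0.05 by limma, where 15.4% of all genes reached it. None was called, and the median log2 difference was -0.15 beside 0.003 over all genes.

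Of 5 genes of steroid metabolism and transport 4 could be tested, and *Abcb1b*, a transporter gene whose product pumps some steroids out of cells, was called higher in stressed males (1.51 ± 0.135 against 1.96 ± 0.259 CPM; log2 0.38, SE 0.14, adjusted p = 0.155, limma), a call that was lost without NSM3 (0.32), SM2 (0.31) or SM3 (0.35), with the cortical covariate (0.25), under scaling by library size (0.33), with every gene that had a read (0.37) and with a replicate block (0.38, just under the fold threshold). In males 2.36% of all genes were called higher.

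A list of 30 other glucocorticoid target genes, all tested, was set beside the members. Like the members, it was chosen with earlier results of these data known. In males 0 were called higher and 3 lower, with 11 at an unadjusted p under 0.05 (21.5% of all genes reached it). The median log2 fold change was -0.04 beside -0.01 over all genes, and 3 of 30 lower stands beside the 4.08% above. The 11 went both ways, with *Klf9*, *Errfi1*, *Nedd9* and *Mertk* higher (log2 0.14 to 0.18) and the rest lower. An adjusted p under 0.05 was reached by 2 of the 30, *Gjb6* and *Per2*, where 3.32% of all genes reached it. *Per2*, under the fold threshold, was at -0.37 (SE 0.09, adjusted p = 0.043, limma). *Gjb6*, the gene of the astrocyte gap junction protein connexin 30, fell from 26.5 to 30.1 CPM in unstressed males to 16.8 to 18.7 CPM in stressed males (log2 -0.66, SE 0.09, adjusted p = 0.00372, limma). *Plin4*, a lipid droplet gene, had 5.03 ± 0.793 CPM in unstressed males and fell to 2.98 ± 0.702 CPM (log2 -0.77, SE 0.25, adjusted p = 0.111), a call that was lost with the cortical covariate (-0.66). *Lcn2*, which encodes an acute-phase protein that binds iron carriers, was called at -2.31 (SE 0.97, adjusted p = 0.19, limma) but its groups overlapped, with 0.106 to 1.34 CPM in unstressed males and 0.0755 to 0.111 CPM after stress, and in 5 of the 12 fits without a library the call was lost (-2.45 to -1.62).

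In females 2 of the 30 were called and both were higher, where 1.73% of all genes were called and 0.64% were called higher: *Plekhf1*, which encodes a protein of endosomes, at 2.09 ± 0.183 against 2.87 ± 0.289 CPM (log2 0.47, SE 0.13, adjusted p = 0.948, limma), and *Angptl4*, an inhibitor of lipoprotein lipase, at 1.56 ± 0.221 against 2.02 ± 0.278 CPM (log2 0.39, SE 0.15), whose call was lost without NSF2 (0.26), SF1 (0.32) or SF3 (0.33). The median over the list was 0.09 beside a median of all genes that rounds to 0 (-0.0039). The interaction was called for 5 genes and higher in females for all of them: *Plin4* (0.84), *Gjb6* (0.64), *Per2* (0.46), *Bcl6* (0.41) and *Klf15* (0.38), where 2.25% of all genes were called higher; *Klf15*, the fifth, was named after its value was seen. Their adjusted p values were 0.439, 0.125, 0.26, 0.214 and 0.319 (limma). Only the *Gjb6* interaction was called in every fit without a library; *Plin4* was lost without NSM1 (0.71), SM1 (0.75) or SM2 (0.76), *Per2* without NSF1 (0.34), *Bcl6* without NSF2 (0.34) or SF1 (0.35), and *Klf15* in 7 of the 12 fits (0.28 to 0.37). With the cortical covariate the calls of *Plin4* (0.69) and *Per2* (0.29) were lost, and that of *Klf15* was lost by edgeR (0.38, just under the fold threshold), by DESeq2 (0.37) and under DESeq2's scaling (0.37). Between stressed females and stressed males 9 of the 30 were called, all higher in females, where 5.55% of all genes were called and 4.58% were called higher. The list median was 0.24 beside 0.01 over all genes. Before stress 3 of the 30 were already called, all higher in females (*Mt1*, *Plekhf1* and *Anxa1*), where 4.17% of all genes were called higher. The list median before stress was 0.13 beside 0.003 over all genes. *Mt1* and *Plekhf1* were called in both comparisons.

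**Figure D4:**
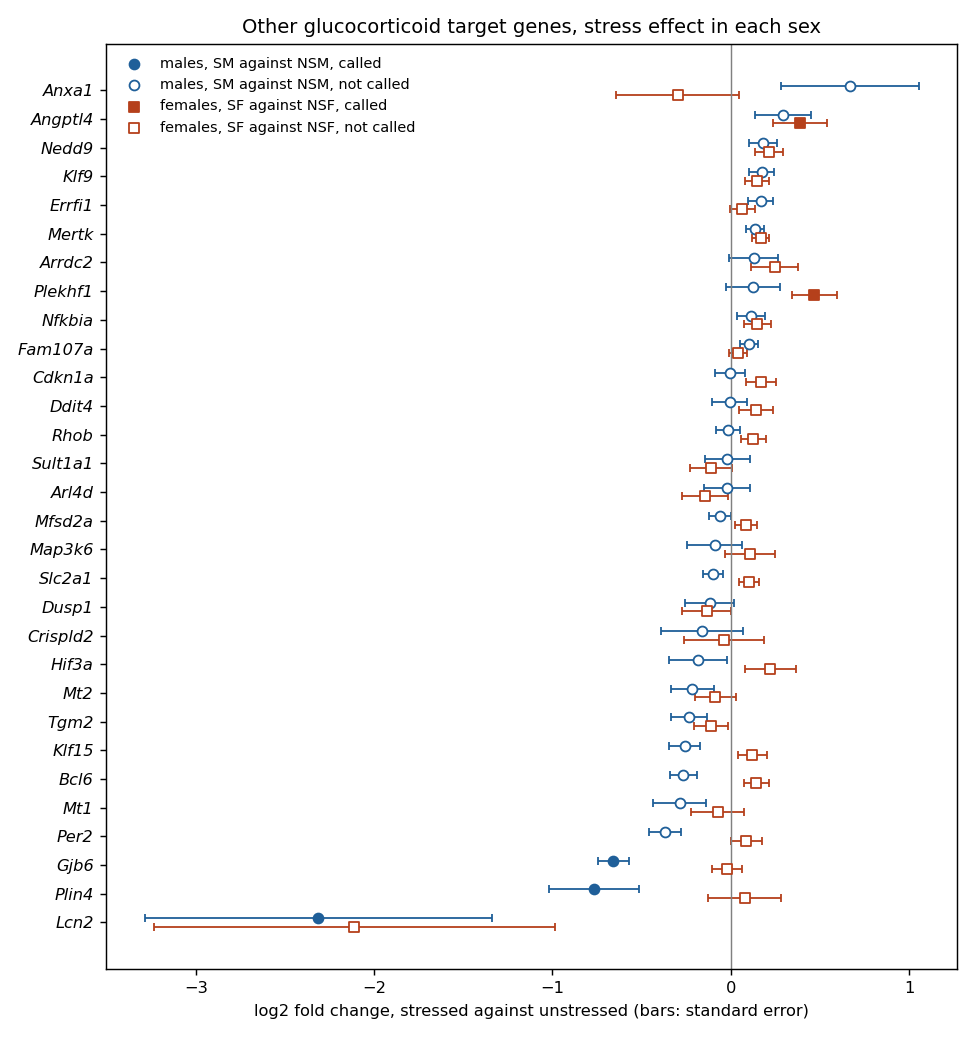
Log2 fold change of stressed against unstressed mice for the 30 other target genes, sorted by the male value, with males as circles and females as squares; bars are standard errors and filled symbols mark called genes. *Gjb6*, *Plin4* and *Lcn2* are filled below 0 in males, *Plekhf1* and *Angptl4* above 0 in females.

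Genes whose log2 CPM followed a member most closely over the 12 libraries were picked by Pearson's r among 14048 genes, as a description without a test, since the libraries share their groups. *Tsc22d3* was nearest to *Cables1* and *Bcl6* (r = 0.91 for both), and *Bcl6* is itself in the list of other targets. *Sgk1* was nearest to *Sun2* and *Mertk* (r = 0.92 for both), *Zbtb16* to *Arhgef18* (0.95) and *Fam65a* (0.94), and *Pdk4* to *Ccdc93* (0.96) and *Chordc1* (0.94). *Nr3c1* paired with *Fam134b* (0.94) and *Trove2* (0.88), *Nr3c2* with *Etf1* (0.98) and *Exoc3* (0.97), *Per1* with *Sh3bp5l* and *Midn* (0.96 for both), and *Hsd11b1* with *Eif5a2* (0.90) and *Cat* (0.89). For *Fkbp5* the nearest were *Adipor2* (r = 0.83) and *Slc41a1* (0.80), but Spearman's rho was 0.51 and 0.16, as SF1 stood far from the rest.

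Small RNA of the same pools was counted per miR precursor. miR-124 and miR-18a are known to act on *Nr3c1* mRNA, and miR-124 and miR-135a on *Nr3c2* mRNA. Of 7 precursors counted, which include mir-18b of the same family as mir-18a, 6 were tested (mir-18b, with 0 to 3 reads per library, was not). None of the 6 was called in either sex by limma, edgeR or DESeq2, where limma called 5.2% of the 500 tested precursors in males and 4.8% in females. Nor had any an unadjusted p under 0.05 by limma, where 12.4% of the 500 reached it in males and 8% in females. The 3 precursors of miR-124, the most abundant miR of neurons, stood at 23112 to 26680 CPM as group means. They give the same mature miR, so their reads cannot be told apart. mir-18a had 13.8 ± 1.11 and 14.7 ± 1.55 CPM in unstressed and stressed males and 12.9 ± 0.431 and 14.9 ± 1.32 CPM in females (SD, n = 3 libraries), with log2 fold changes of 0.08 (SE 0.13) and 0.21 (SE 0.13). mir-135a-1 and mir-135a-2 had log2 fold changes between -0.05 and 0.02. The mature sequences from RefSeq are shown because their seeds (bases 2 to 8, in capitals), which differ, set the targets:
mmu-miR-18a-5p: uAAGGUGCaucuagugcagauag
mmu-miR-135a-5p: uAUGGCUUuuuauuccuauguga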

How the data were processed

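Messenger RNA and small RNA were measured in 12 pools of NAc tissue each. Per the labels and the study's methods, the authors aligned mRNA reads to NCBIM37 with TopHat2 and used HTSeq to count them per Ensembl gene. The deposited values are raw read counts without normalization, and the small RNA file likewise holds raw counts per miR precursor. The strand setting of the counting is not given in the sources used here. Symbols, positions and exon lengths came from the GENCODE annotation of NCBIM37 (17795 of the 18593 tested genes received a symbol).

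Genes passing 5 reads in 80% or more of any group's libraries were kept, scaled by TMM factors and fitted with voom and limma 3.58.1 (R 4.3.3) over all 12 libraries, with 1 mean per group and no covariate, after the study's methods. CPM values are TMM-scaled and RPKM values are these divided by exon length. Adjusted p values follow Benjamini and Hochberg, over every tested gene or over the 500 tested precursors. Alternatives were edgeR 4.0.16 (quasi-likelihood), DESeq2 1.42.0 (Wald), other scalings and filters, a fit to only the libraries compared, a replicate block and 12 fits that each left out a library. The fits were tested on simulated counts with known changes. Nothing in the sources says that the pools of a group differ in more than their mice, so p values measure the spread between pools.

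The 9 genes, the gene lists and the tests were chosen with earlier results of these data known. In each list up to 4 called genes with the largest change were named, and where none was called the 2 with the smallest p. A further list that was examined is not reported here. Mice were 9 weeks old by the labels, and the study's methods give another age. Depth was 41076780 to 60867747 reads per mRNA library and 5086554 to 13522287 per small RNA library. Plots were drawn with matplotlib 3.10.9.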

Additional observations from a re-analysis of the deposited data

Results flagged for a closer look

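The stress effect differed between the sexes for 3 of the 9 genes by the interaction term of the fit. The female minus male log2 fold change was 0.71 for *Tsc22d3* (-0.40 in males, 0.31 in females), 1.15 for *Zbtb16* (-1.02 and 0.13) and 0.50 for *Pdk4* (-0.51 and -0.01). For *Tsc22d3* the 3 stressed male libraries were all below the unstressed males and the 3 stressed female libraries all above the unstressed females. The adjusted p values were 0.0328, 0.129 and 0.12 by limma and 3.52e-06, 0.000449 and 0.00605 by DESeq2, and the largest over 8 alternatives were 0.802, 0.88 and 0.88. Over all genes, DESeq2 gave 135 with an adjusted p under 0.05 for the interaction, against 5 by limma. The cortical neuron markers changed in the opposite sense, with an interaction called lower in females for 6 of 7 genes, and with their mean level in the fit the 3 differences were 0.71, 1.25 and 0.46. In that fit 0 of the 18593 genes had an adjusted p under 0.05 for the interaction, against 5 without the covariate. All 5 red blood cell genes were likewise called lower in the interaction (median -0.84), and their part was not tested. When 1 library was left out, the adjusted p of *Tsc22d3* was under 0.05 in 3 of 12 fits. Groups of 3 libraries are too small for a test of single outlying libraries, and SF1, the highest library for 4 of the 9 genes, has its effect on the female values given in the report.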

How the results depend on the processing

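The count of called members in males stayed at 3 in all 9 alternatives and was 2 or 3 when 1 library was left out (2 without NSM2 or SM2, *Tsc22d3* being lost); the count for the interaction stayed at 3 except under the adjusted p (1). In females the 1 call was lost under the adjusted p (0) and with the cortical covariate (0), and leaving out a library gave 0 to 1 (0 without NSF1 or SF1). Averaged over the sexes 2 members passed the adjusted p and leaving out a library gave 1 to 2 (2 without SF2). Between unstressed females and males 1 member, *Pdk4*, was called under the adjusted p, under scaling by library size and with only the libraries compared, and leaving out a library gave 0 to 1 (1 without NSM3 or NSF3). Between stressed females and males it was 2 throughout. Of the other target genes, the adjusted p left 0 calls in females and 0 for the interaction, scaling by library size left 1 in females, and leaving out a library gave 1 to 3 in females (1 without NSF2, SF1 or SF3), 2 to 5 in males (5 without NSM1) and 4 to 5 for the interaction.

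Signs turned only for values near 0. Scaling by library size gave -0.0316 and -0.00849 for *Nr3c1* in males and females and -0.00795 for *Per1* in females, and in females edgeR and DESeq2 gave -0.0106 and -0.0160 for mir-135a-1 and -0.00282 and -0.00815 for mir-135a-2. Leaving out a library gave -0.00111 to 0.10 for *Fkbp5* in males, -0.0106 to 0.0700 and -0.0114 to 0.0334 for *Nr3c1* in males and females, and in females -0.0308 to 0.0173 for *Pdk4*, -0.0327 to 0.0648 for *Per1* and -0.0385 to 0.25 for *Zbtb16*. For mir-135a-1 it gave -0.13 to 0.16 in females, and for mir-135a-2 -0.0259 to 0.0833 in males and -0.13 to 0.19 in females. The causes were not tested.

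The labels number the libraries 1 to 3 in each group, but same-numbered libraries deviated together by a correlation of only 0.0058 to 0.35 in males and 0.088 to 0.13 in females, short of 0.1 in at least 1 pair of each sex, so they were not treated as pairs. In the small RNA of the same pools the female pairs had correlations of 0.13, 0.19 and 0.31, all over 0.1, and the male pairs -0.0191 to 0.26, so a pairing of the female libraries cannot be told from these values. With the replicate block 3 members were called in males, 1 in females, 3 for the interaction, 0 and 2 between the unstressed and stressed sexes and 1 averaged, with no call of a member changed. None of the 6 tested precursors was called with it either, where 6.8% of all precursors were called in males and 4.6% in females. In males 4 precursors had an adjusted p under 0.05 with the block, against 0 without it. Over all genes the block raised the count with an adjusted p under 0.05 from 618 to 998 in males. Between the sexes the count rose from 53 to 562 without stress and from 27 to 837 with it. Averaged over the sexes it rose from 93 to 330 and for the interaction from 5 to 9, while in females it stayed at 0. The cause of this rise was not tested. *Zbtb16* and *Hsd11b1* have the fewest reads, and with 3 pools per group small changes such as those of *Fkbp5* could not be told from 0.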
